A study of Mus musculus with 3 samples.

Results

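The cells described here are 248 natural killer (NK) cells among the 25762 leukocytes of infarcted mouse hearts in this series. A cell was taken as an NK cell when it had 200 or more genes, at least 2 molecules of Ncr1, Klrb1c and Prf1 together, at least 1 molecule of Nkg7 and no molecule of Cd3e, Cd3d, Cd3g, Cd79a or Flt3. Molecules of the C1q genes (C1qa, C1qb and C1qc) also had to stay below 0.1% of the cell's total, and those of S100a8 and S100a9 below 1%. All 25640 cells with 200 or more genes were screened. These genes chose the cells, so their own levels are given as a description and were not tested.

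Hearts had been infarcted by permanent ligation, and leukocytes selected for CD45 at several time points went into BD Rhapsody single-cell libraries. The mice were F7fl/fl CX3CR1Cre or, as controls, F7fl/fl WT. All mice thus carried the floxed allele of F7, the gene of coagulation factor VII. The Cre line is named for Cx3cr1, a chemokine receptor gene of mononuclear phagocytes that some lymphocytes also use. The 3 libraries held 18 sample tags (7, 5 and 6), and the labels used here tie no genotype to a tag. The name of library 1 holds the letters d3, which the labels do not explain and which all of its tags share, and the names of the other libraries hold no such letters. Tags and libraries were therefore not compared with each other, and NK cells were tested only against other cells that carried the same tag. Nothing says whether tags of equal treatment came from separate hearts, so p-values measure the spread between these tags.

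NK cells are innate lymphocytes that kill infected, stressed or transformed cells without a rearranged antigen receptor. They carry granules with perforin, which opens the target membrane, and with granzymes, proteases that trigger death inside the target. Whether they fire depends on the balance of activating and inhibitory receptors, many of them encoded in the NK gene complex, and they release interferon gamma and chemokines that act on macrophages, dendritic cells and T cells. In mice, Eomes and T-bet (Tbx21) direct their development, interleukin 15 keeps them alive through the receptor chain Il2rb, and maturation goes with loss of Cd27 and gain of Itgam (CD11b).

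The sequences just before the start sites of the 5 marker genes are shown because transcription factors of the Runt and T-box families act on the genes of killer lymphocytes. They are the 250 bases before the first listed start of each gene from RefSeq (build GRCm38.p6), 5′ to 3′ on the strand of the gene. Capitals mark the Runt letters TGTGGT or, on the other strand, ACCACA, and the T-box letters GGTGTGA or TCACACC.
Ncr1 (chr7:4337465-4337714, + strand): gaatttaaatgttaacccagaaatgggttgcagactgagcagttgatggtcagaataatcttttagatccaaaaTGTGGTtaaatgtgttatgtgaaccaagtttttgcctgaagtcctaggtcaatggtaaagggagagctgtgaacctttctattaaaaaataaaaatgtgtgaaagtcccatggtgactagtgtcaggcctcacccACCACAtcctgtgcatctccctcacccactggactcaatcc
Klrb1c (chr6:128788642-128788891, - strand): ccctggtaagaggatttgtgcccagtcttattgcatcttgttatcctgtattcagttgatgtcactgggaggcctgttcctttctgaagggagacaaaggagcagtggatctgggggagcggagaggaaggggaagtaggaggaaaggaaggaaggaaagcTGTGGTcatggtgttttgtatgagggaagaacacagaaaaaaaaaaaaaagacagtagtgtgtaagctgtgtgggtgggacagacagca
Gzma (chr13:113100982-113101231, - strand): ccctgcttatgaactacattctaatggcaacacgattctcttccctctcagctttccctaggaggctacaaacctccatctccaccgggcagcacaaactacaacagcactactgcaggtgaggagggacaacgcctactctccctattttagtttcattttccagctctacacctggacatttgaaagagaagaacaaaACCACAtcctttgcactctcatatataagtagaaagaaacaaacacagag
Nkg7 (chr7:43436888-43437137, + strand): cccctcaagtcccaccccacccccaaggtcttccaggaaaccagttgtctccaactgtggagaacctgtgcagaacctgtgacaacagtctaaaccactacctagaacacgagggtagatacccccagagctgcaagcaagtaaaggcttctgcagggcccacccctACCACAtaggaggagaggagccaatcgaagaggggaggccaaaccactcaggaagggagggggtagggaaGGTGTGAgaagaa
Prf1 (chr10:61297586-61297835, + strand): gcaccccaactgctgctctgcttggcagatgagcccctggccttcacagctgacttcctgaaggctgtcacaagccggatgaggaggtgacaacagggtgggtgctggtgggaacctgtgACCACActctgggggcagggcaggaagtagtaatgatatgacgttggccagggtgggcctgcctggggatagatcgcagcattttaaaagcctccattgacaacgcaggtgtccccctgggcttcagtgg

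All 5 windows held the Runt letters, as did 14.05% of the 32851 windows cut in the same way, 250 bases before each start in the table. Ncr1, the receptor NKp46, held them at 2 places, 176 and 41 bases before the start. In Klrb1c, which encodes the surface marker NK1.1, they lay 89 bases before it. Gzma, the gene of granzyme A, had them 50 bases before its start. For Nkg7, a granule membrane protein, the distance was 83 bases and for Prf1, perforin, 130 bases. Of these windows the one of Nkg7 also held the T-box letters, 13 bases before the start, as did 3.333% of all windows. A match of letters is a description and not a binding site. Runx3, a factor of the Runt family, had a median of 329 CPM (range 241 to 554) over the 14 tags with at least 10 NK cells. CPM are molecules of a gene per 1000000 molecules, summed over the NK cells of a tag, or over all cells of a class where a level is called pooled.

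The markers given for these cells were present in each of those tags. The median level was 307 CPM (range 160.4 to 633) for Ncr1, 399 CPM (range 249.9 to 613) for Klrb1c, 561 CPM (range 223 to 919) for Prf1 and 1208 CPM (range 749.6 to 1562) for Nkg7. Gzma, which the rule did not use, had a median of 3267 CPM (range 2333 to 4796) and at least 1 molecule in 223 of the 248 cells (89.9%). Ncr1 was found in 184 cells, Klrb1c in 225 and neither in 8. Summed over 10 NK markers, the level was 9186 CPM in NK cells at the median tag, against 742 CPM in T cells at the median tag and a pooled 21.8 CPM in macrophages. These 10 include Ncr1, Klrb1c, Prf1 and Nkg7, by which the NK cells were chosen. T cells were chosen to hold no Ncr1 or Klrb1c, so the rules set part of this difference.

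Few cells lay next to the edge of the rule on the side of the killer genes or of Cd3. Of the members, 198 had 5 or more molecules of Ncr1, Klrb1c and Prf1 together and 14 had exactly 2, while 11 cells that met every other condition had 1. Members at the threshold held a pooled 1235 CPM of Gzma and 317 CPM of Eomes. The cells just outside it held 2373 CPM of Gzma and 633 CPM of Eomes. A further 81 cells met all conditions but that on Cd3, and 11 of them held exactly 1 Cd3 molecule. The 81 cells held a pooled 677 CPM of Trac, the T cell receptor alpha chain, and 1047 CPM of Gzma. Another 73 were kept out by the C1q limit alone, and 164 of the 248 members held some C1q molecule below it.

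NK cells were 0.967% of all cells with 200 or more genes (248 of 25640; 95% Clopper-Pearson interval 0.851 to 1.09%, counting error only). Their share per tag ran from 0.416% to 1.98% with a median of 0.964%, on 4 to 31 NK cells a tag. Library medians were 0.870%, 1.01% and 1.05% for libraries 1, 2 and 3. For each T cell there were 0.611 NK cells at the median tag, with a range of 0.214 to 2.22. T cells were defined by 2 or more Cd3 molecules, no molecule of Ncr1 or Klrb1c and the same limits on the other lineages, which left 419 cells.

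**Figure D1:**
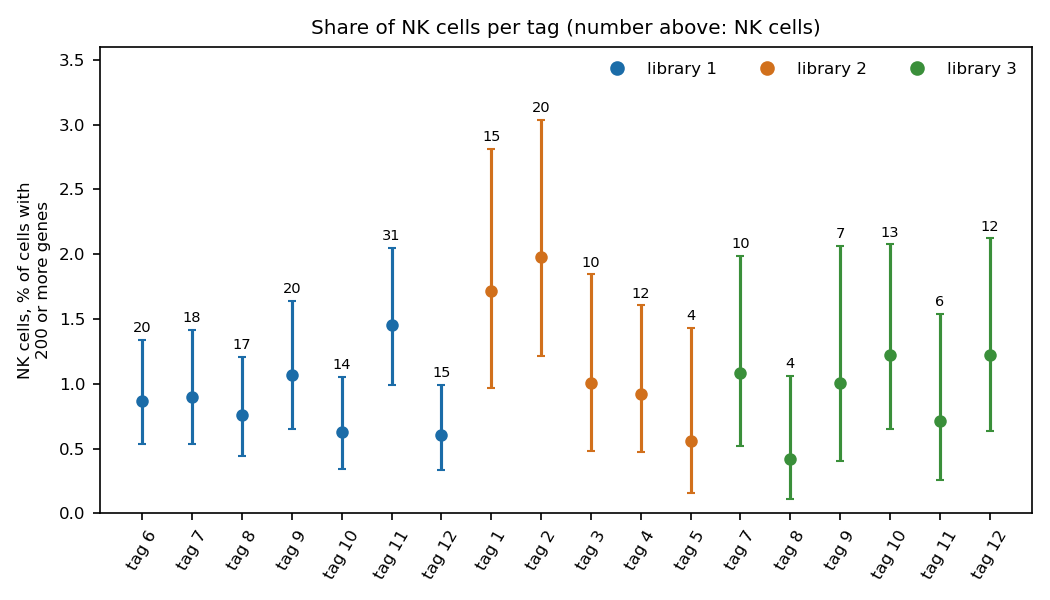
NK cells as a percentage of the cells with 200 or more genes in each of 18 sample tags, with exact 95% Clopper-Pearson intervals as bars; colours are libraries. The shares lie between 0.416% and 1.98% and the intervals of single tags are wide.

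Libraries 1, 2 and 3 held 135, 61 and 52 NK cells, with medians of 8565, 5026 and 7044 molecules per NK cell. Over all NK cells the median was 7645 molecules and 2532 genes, against 7329 molecules in T cells and 20233 in the 8495 macrophages used for reference levels. Shares of cells called thinned were taken after each cell was drawn down to 1000 molecules, which left out no NK or T cell. For macrophages, thinned shares come from 2000 cells drawn at random. Pairs of libraries shared 4, 3 and 0 cell numbers over all cells, and no NK cell shared its number with another.

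Markers of other cell types were summed in the NK cells of each tag. The 10 macrophage markers, all present, reached 2359.6 CPM in NK cells at the median tag (727 to 7175), against 3789.6 CPM in T cells (1871 to 5406) and a pooled 33755 CPM in macrophages. Lyz2, the lysozyme gene, was found in 81.9% of NK cells and 82.6% of T cells. The 7 neutrophil markers summed to 9.29 CPM in NK cells (0 to 946), against 211 CPM in T cells (7.07 to 1385). Of the 9 T cell markers, the Cd3 genes were at 0 by the rule and 6 had molecules. Their sum was 272 CPM in NK cells (142 to 557), against 3702 CPM in T cells (2305.6 to 4562.5). Among CD8 and CD4 T cell markers Cd8b1 and Cd40lg were at 0, and both sums were 0 CPM in NK cells at the median tag. The 6 monocyte markers reached 1433 CPM in NK cells (767 to 3027), against 1912 CPM in T cells (935 to 4176). The 7 B cell markers reached 166 CPM in NK cells (57.9 to 754), against 116 CPM in T cells (56.1 to 517). The NK and T cell rules cap the C1q genes, S100a8 and S100a9 and allow no Cd79a. They thus hold down part of the macrophage, neutrophil and B cell sums in both classes. Macrophages of the reference were chosen by their C1q and Adgre1 molecules. The part of RNA from these other cells in the differences below was not tested.

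NK cells were compared with T cells in the 13 tags that held at least 10 of each. Among 3304 genes tested with edgeR's quasi-likelihood test, with the tag as a block and Benjamini-Hochberg adjustment, 277 were higher in NK cells and 264 lower at an adjusted p under 0.05, which is 8.38% and 7.99%. Without library 1, 105 were higher and 59 lower. Over all of these genes the log2 difference had a median of -0.01. Genes that vary with those of the rules follow the choice of cells, and the genes of the rules themselves were left out of the test. A gene that passed the filter on low counts only through the class in which it is high had to differ. The filter was passed through NK cells alone by 94 of the higher genes and through T cells alone by 101 of the lower ones, Klra8 and Bcl11b among them. The differences of such genes are descriptions and stand below without the p-value of the call, and counts and medians over tested genes are descriptions too.

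With at least 20 cells per tag and class, only tags 6 and 11 of library 1 were left. The part of fewer tags in the calls lost below was not tested. In the cells with no C1q molecule 2 tags were left, and 21 genes were higher and 26 lower. Of the 79 named genes called against T cells 48 lost their call in that small fit, among them Gzmb (1.55, adjusted p = 7.8e-02), Ctsw (0.88, adjusted p = 5.0e-01), Eomes (3.79, adjusted p = 1.4e-01) and Tbx21 (1.31, adjusted p = 4.7e-01).

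**Figure D2:**
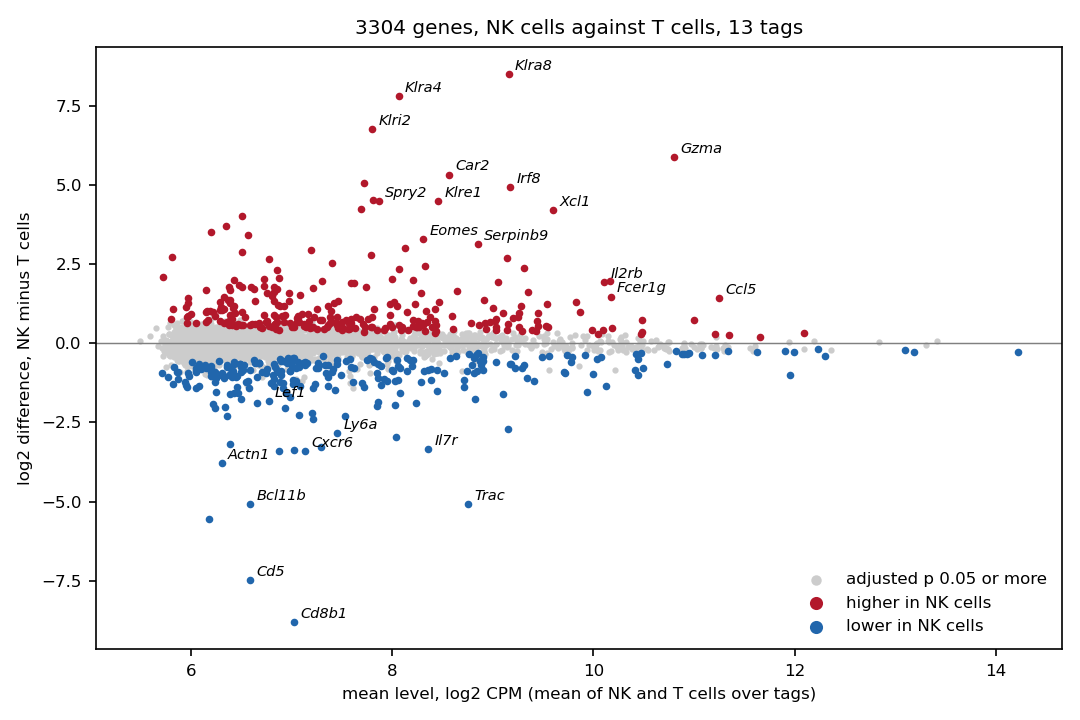
Each point is 1 of 3304 genes, with its level (log2 CPM) on the x axis and the log2 difference, NK minus T cells, on the y axis; coloured points passed an adjusted p of 0.05. Klra8, Klra4 and Gzma lie far above 0, at 8.49, 7.81 and 5.89, and Bcl11b far below it at -5.07.

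Of 26 genes of the cytotoxic granule, 12 were tested and 7 were higher, none was lower by edgeR, 8 passed an unadjusted p of 0.05 in either direction, and the median log2 difference was 1.31. Over all genes tested, 8.38% were higher and 7.99% lower. Gzma had 2333, 3484 and 4796 CPM in NK cells, against 0, 28.4 and 209 CPM in T cells (lowest, median and highest tag, here and below). Every NK value lay above every T cell value, as in 1.12% of all genes tested, and the log2 difference was 5.89 ± 0.36 (SE). Gzmb, granzyme B, had 288, 1065 and 2537 CPM in NK cells, against 0, 231 and 521 CPM in T cells. It was higher in 13 of 13 tags although the ranges overlap, with a log2 difference of 2.37 ± 0.22. Fasl, the death ligand, was higher by 1.77 ± 0.28 on the log2 scale, and Ctsw and Cst7, a protease and a protease inhibitor of cytotoxic cells, by 1.31 ± 0.14 and 1.31 ± 0.19.

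Both tested serpins of the list, a family of protease inhibitors, were higher. Serpinb9, which blocks granzyme B, had 366, 767 and 1416 CPM in NK cells, against 23.2, 86.9 and 161 CPM in T cells, without overlap. Its log2 difference was 3.12 ± 0.24. Serpinb6b, a related serpin, had 196, 454 and 883 CPM in NK cells, against 12.2, 47.1 and 116 CPM in T cells, higher in 13 of 13 tags. Srgn, the proteoglycan that packs granules, did not pass, with a log2 difference of -0.17 ± 0.10 (adjusted p = 2.7e-01). Gzmc, another granzyme, had molecules in 17 of 248 NK cells and was too low to be tested. Granzyme genes of one cluster are close copies, and the sources used here do not say how reads shared between them were counted.

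Several Ly49 receptors were close to absent from T cells. Klra8, the activating receptor Ly49H, had 451, 1232 and 1790 CPM in NK cells, against 0, 0 and 30.8 CPM in T cells. No T cell value reached the lowest NK value, with 8 molecules in all T cells, and the fitted log2 difference was 8.49 ± 0.39. Klra4, the activating receptor Ly49D, had 232, 520 and 791 CPM in NK cells, against 0, 0 and 17 CPM in T cells, a log2 difference of 7.81 ± 0.41. Klra9 and Klra7, further members of the Ly49 family, were higher by 5.07 ± 0.37 and 4.25 ± 0.50. Ly49 genes are near-identical copies, so counts may be split between members. As counted, 227 of 248 NK cells held at least 1 of 9 Ly49 genes and the median cell held 3.

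Of 22 inhibitory receptors 9 were tested, 7 were higher and 1, Ctla4, lower, with a median log2 difference of 4.25. Of 28 activating receptors and adaptors 18 were tested, 10 were higher and 2, Cd2 and Cd247, lower, with a median of 1.33. The shares of all genes tested were 8.38% higher and 7.99% lower. Klre1 had 419, 673 and 917 CPM in NK cells, against 0, 22.3 and 74.5 CPM in T cells, without overlap (log2 difference 4.50 ± 0.31). Klri2, which pairs with Klre1, was higher by 6.77 ± 0.42 and Klrb1b, an inhibitory receptor, by 4.53 ± 0.40. Klrk1 (NKG2D), which reads stress ligands, had 402, 553 and 818 CPM in NK cells, against 20.6, 104 and 145 CPM in T cells, a log2 difference of 2.45 ± 0.20. Klrd1 (CD94) and its partners Klrc1 and Klrc2 (NKG2A and NKG2C) were higher by 2.33 ± 0.28, 1.92 ± 0.24 and 3.40 ± 0.32.

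The adaptor chains differed in direction. Tyrobp (DAP12), which signals for Ly49H and Ly49D, had 811, 1287 and 2008 CPM in NK cells, against 287, 480 and 824 CPM in T cells and was higher in 13 of 13 tags (log2 difference 1.30 ± 0.16). Fcer1g, a chain used by NKp46, had 1006, 1758 and 2449 CPM in NK cells, against 380, 594 and 941 CPM in T cells, without overlap (log2 difference 1.47 ± 0.11, edgeR adjusted p = 2.3e-09). Macrophages also express both, at pooled levels of 1735 and 2418 CPM. In cells with no C1q molecule the calls of Tyrobp (2.65, adjusted p = 3.1e-01) and Fcer1g (2.30, adjusted p = 2.0e-01) were lost. Cd247, the CD3 zeta chain, had 8.92, 46.8 and 246 CPM in NK cells, against 105, 149 and 324 CPM in T cells. It was lower in NK cells in 12 of 13 tags, at a log2 difference of -1.23 ± 0.24. The call was lost with at least 20 cells per tag and class (-0.44, adjusted p = 6.1e-01), within library 1 alone (-0.66, adjusted p = 8.5e-02) and in cells with no C1q molecule (-0.40, adjusted p = 8.0e-01).

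**Figure D3:**
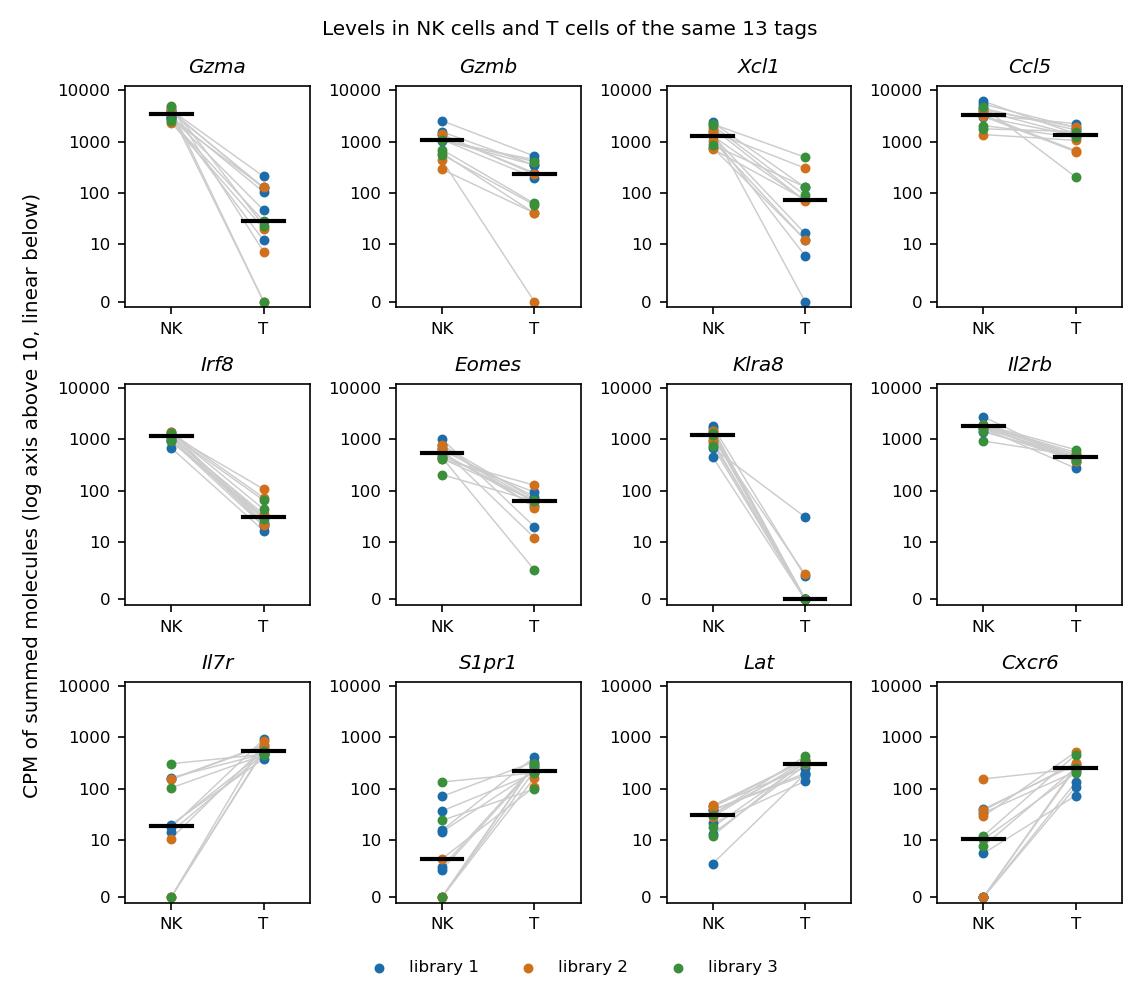
CPM of 12 genes in NK cells (left of each panel) and T cells (right) of the same 13 tags, joined by lines, on a y axis that is logarithmic above 10 and linear below. Gzma and Irf8 are higher in NK cells in 13 of 13 tags, and Lat lower in 13 of 13 tags.

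Among transcription factors, Irf8, an interferon regulatory factor, had 681, 1155 and 1369 CPM in NK cells, against 16.7, 30.8 and 108 CPM in T cells, without overlap, with a log2 difference of 4.92 ± 0.17. Macrophages held a pooled 149.6 CPM of Irf8, below the lowest NK tag. Eomes had 205, 552 and 1018 CPM in NK cells, against 5.15, 62 and 128 CPM in T cells, a log2 difference of 3.28 ± 0.28. Tbx21 had 105, 228 and 283 CPM in NK cells, against 0, 34.9 and 79.8 CPM in T cells, a log2 difference of 2.31 ± 0.21. Neither factor's NK values met those of T cells. Id2, which holds back E proteins in innate lymphocytes, was higher by 1.25 ± 0.15. These 4 were the factors higher among 21 tested of 26, beside 8.38% higher of all genes tested.

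Lower factors numbered 8, beside 7.99% lower of all genes tested, and the median of the list was -0.06. Bcl11b, which fixes T cell identity, had 0, 0 and 18.8 CPM in NK cells, against 82.4, 205 and 324 CPM in T cells, without overlap (log2 difference -5.07 ± 0.31). Lef1 and Tcf7, partners in T cell programmes, were lower, at log2 differences of -1.82 ± 0.19 and -0.95 ± 0.17. The call for Tcf7 was lost without library 1 (-0.73, adjusted p = 1.3e-01), within library 2 alone (-0.15, adjusted p = 8.8e-01) and in cells with no C1q molecule (-0.60, adjusted p = 6.8e-01). For Lef1 it was lost within library 2 (-1.31, adjusted p = 8.0e-02) or library 3 alone (-1.68, adjusted p = 1.6e-01) and in cells with no C1q molecule (-2.66, adjusted p = 6.0e-02).

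NK cells were rich in chemokine transcripts. Of 22 cytokines and chemokines 7 were tested and 6 were higher, none was lower by edgeR, 6 passed an unadjusted p of 0.05 in either direction, and the median log2 difference was 1.60. Among all genes tested 8.38% were higher and 7.99% lower. Xcl1, which attracts cross-presenting dendritic cells, had 716, 1282 and 2350 CPM in NK cells, against 0, 72 and 495 CPM in T cells, without overlap (log2 difference 4.20 ± 0.37). Ccl5, a chemokine that attracts lymphocytes and monocytes, had 1364, 3280 and 6079 CPM in NK cells, against 203, 1320 and 2224 CPM in T cells. It was higher in 13 of 13 tags by 1.44 ± 0.24, with overlapping ranges. Ccl3 and Ccl4, inflammatory chemokines, were higher by 2.00 ± 0.45 and 2.69 ± 0.47. Both calls were lost without library 1 (Ccl3 0.99, adjusted p = 3.7e-01; Ccl4 1.90, adjusted p = 8.0e-02), and the Ccl3 difference was -0.18 within library 2 alone. Macrophages held pooled levels of 582 CPM of Ccl3 and 807 CPM of Ccl4.

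Interferon gamma, Ifng, had 43.4, 146 and 396 CPM in NK cells, against 0, 45.5 and 173 CPM in T cells, a log2 difference of 1.60 ± 0.34 (edgeR adjusted p = 2.1e-03). The call was lost within library 3 alone (1.53, adjusted p = 4.9e-01) and in cells with no C1q molecule (1.19, adjusted p = 6.8e-01). Ifng was found in 106 of 248 NK cells (42.7%), or 16.9% after thinning, against 6.21% of thinned T cells and 0.150% of thinned macrophages. Tgfb1, transforming growth factor beta 1, was higher by 1.48 ± 0.15. No molecule of Il17a, Il22 or Il13 was seen in 2381897 molecules of NK cells, which allows up to 9.96 CPM in the deepest tag and 162 CPM in the shallowest, as 3 molecules of the tag's total.

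Receptors for cytokines split, with 4 higher and 5 lower of 16 tested, beside 8.38% higher and 7.99% lower of all genes tested. Il2rb, the beta chain shared by the interleukin 2 and 15 receptors, had 928, 1818 and 2756 CPM in NK cells, against 273, 452 and 626 CPM in T cells, without overlap, and was found in all 248 NK cells. Its log2 difference was 1.94 ± 0.12 (edgeR adjusted p = 1.1e-10). Il18rap and Il12rb2, chains of the interleukin 18 and 12 receptors, were higher by 1.96 ± 0.20 and 2.04 ± 0.36. Il7r, on which most T cells rely for survival, had 0, 19.1 and 303 CPM in NK cells, against 381, 530 and 901 CPM in T cells. No NK value reached the lowest T cell value, as in 0.484% of all genes tested, and the log2 difference was -3.35 ± 0.43.

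Trafficking genes separated NK cells from T cells in both directions, with 10 higher and 5 lower of 21 tested and a median log2 difference of 0.41. Over all genes tested, 8.38% were higher and 7.99% lower. S1pr1, the receptor that leads lymphocytes out of tissue, had 0, 6.68 and 134 CPM in NK cells, against 97.8, 220 and 408 CPM in T cells. It was lower in 13 of 13 tags (log2 difference -3.37 ± 0.39). S1pr5, which mouse NK cells use for egress, had molecules in 33 NK cells and a pooled 20.2 CPM, against 1.20 CPM in T cells, and was too low to be tested. Cxcr6, a receptor of resident lymphocytes, had 0, 10.3 and 154 CPM in NK cells, against 73.2, 252 and 514 CPM in T cells and was lower, at a log2 difference of -3.40 ± 0.37. Cd69, which holds lymphocytes in tissue, was lower too, at -1.48 ± 0.19, but not called with at least 20 cells per tag and class (-0.92, adjusted p = 1.0e-01), within library 3 alone (-1.35, adjusted p = 9.9e-02) or in cells with no C1q molecule (-1.07, adjusted p = 5.3e-01). Ccr7, a lymph node homing receptor, was lower at -2.31 ± 0.47, a call lost without library 1 (-2.40, adjusted p = 1.1e-01).

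Itgax (CD11c), an integrin chain, had 277, 339 and 484 CPM in NK cells, against 0, 37.2 and 484 CPM in T cells and was higher in 12 of 13 tags by 2.77 ± 0.32. Ccr2, the receptor for Ccl2, passed at 0.41 ± 0.12 (edgeR adjusted p = 1.7e-02), but not with library 1 (0.46, adjusted p = 1.2e-01), library 2 (0.39, adjusted p = 1.0e-01) or library 3 (0.34, adjusted p = 6.9e-02) left out.

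Of 16 tested proximal signalling genes 5 were higher and 3 lower, beside 8.38% higher and 7.99% lower of all genes tested. Lat, the scaffold of the T cell receptor, had 5.85, 30.9 and 46.8 CPM in NK cells, against 139, 302 and 424 CPM in T cells, without overlap (log2 difference -3.26 ± 0.21). Lat2, its relative in other leukocytes, was higher by 1.33 ± 0.20. Its call was lost with at least 20 cells per tag and class (1.14, adjusted p = 8.4e-02), within library 2 (1.39, adjusted p = 7.7e-02) or library 3 alone (1.22, adjusted p = 2.6e-01) and in cells with no C1q molecule (2.17, adjusted p = 5.1e-01). Txk, a kinase of the Tec family, was higher by 1.28 ± 0.18.

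T cell receptor genes follow the Cd3 conditions and are a check of both gates. Trac had 0, 18.8 and 116 CPM in NK cells, against 574, 815 and 1225 CPM in T cells, and 43 of the 248 NK cells held a Trac molecule. Trbc1, a beta chain constant gene, behaved otherwise, with 163, 324 and 548 CPM in NK cells, against 51.4, 286 and 506 CPM in T cells. Its log2 difference was 0.29 ± 0.17 (edgeR adjusted p = 2.7e-01). Thinned, Trbc1 was found in 29.4% of NK cells and 25.8% of T cells, against 0.150% of macrophages, which should lack it. Trdc, the delta chain constant gene, was found in 122 NK cells (49.2%), or 12.5% when thinned, against 11.7% of thinned T cells. By edgeR on the summed molecules, Trdc was nevertheless lower in NK cells. Of the 8 tested genes of the list 7 were lower and Trbc1 was not called, beside 7.99% lower of all genes tested.

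None of 11 tested cell cycle genes was called by edgeR, beside 16.4% of all genes tested called in either direction. An unadjusted p under 0.05 was found for 1 of the 11, and the median log2 difference of the list was 0.07. Of 10 tested interferon response genes 1 was lower, Ifi27l2a, at -1.99 ± 0.34, beside 7.99% lower of all genes tested. The Ifi27l2a call was lost within library 3 alone (-0.90, adjusted p = 4.6e-01). Among 14 tested genes of metabolism 5 were lower, beside the same 7.99%, and none higher by edgeR, 9 passing an unadjusted p of 0.05. Hif1a, the hypoxia factor, was lower at -1.08 ± 0.19. Of 26 tested immediate early and stress genes 8 were higher and 3 lower, beside 8.38% higher and 7.99% lower of all genes tested. The higher ones included Nr4a2, an orphan receptor induced by activation, by 1.58 ± 0.14, and Dusp2, a phosphatase of activated lymphocytes, by 1.61 ± 0.16.

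**Figure D4:**
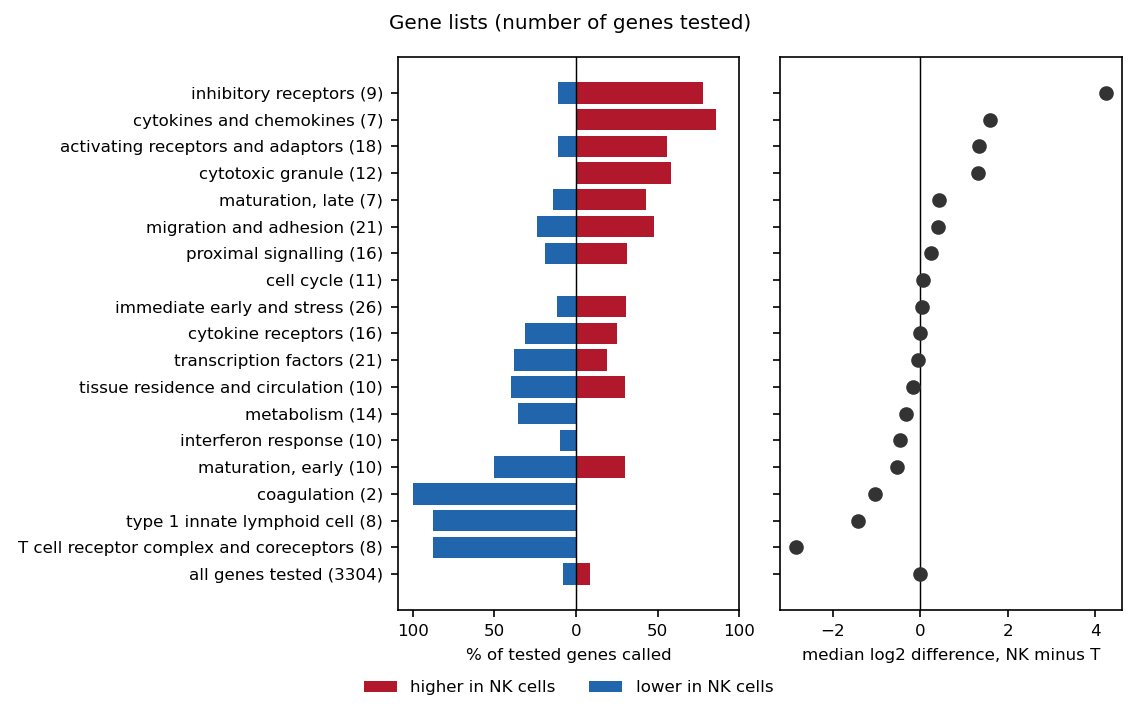
Shares of the tested genes of each list that were higher or lower in NK cells than in T cells, and the median log2 difference of each list. Inhibitory receptors have a median of 4.25 and T cell receptor genes of -2.84, beside -0.01 for all genes tested.

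Outside the lists, the called genes with the greatest differences in the same direction in every tag were taken by rule. Car2, carbonic anhydrase 2, had 468, 696 and 1028 CPM in NK cells, against 0, 13.1 and 116 CPM in T cells, without overlap (log2 difference 5.32 ± 0.29). Spry2, an inhibitor of receptor tyrosine kinase signalling, had 149, 475 and 711 CPM in NK cells, against 0, 13 and 77.2 CPM in T cells, a log2 difference of 4.50 ± 0.32. Nrarp, a regulator of Notch signalling, and Hhex, a homeobox factor, were higher by 3.69 ± 0.34 and 3.50 ± 0.35. Atp1b1, Sulf2, Tmem2, Arsb, Aoah and Serpina3g completed the 10 higher genes, with log2 differences from 2.94 to 2.02. Among the lower genes Gm8369 had 5 molecules in all NK cells of the comparison, against 491 in T cells. Actn1, an actin crosslinker, had 0, 6.64 and 71.4 CPM in NK cells, against 81.5, 123 and 343 CPM in T cells, without overlap. Slfn1, Ly6a, Tmem64, Dgka, Grap2, Ms4a6b, Rgs10 and Got1 made up the rest, with log2 differences from -3.18 to -1.57.

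NK cells were also compared with CD8 T cells, the other killer lymphocyte. CD8 T cells were T cells with a CD8 molecule and none of Cd4 (152 cells), and 5 tags held at least 10 of both classes. Of 3033 genes tested with edgeR 65 were higher in NK cells (2.14%) and 46 lower (1.52%), or 3.66% in either direction. In simulated counts of this size 26.4% of changes of 1 log2 unit and 96.2% of changes of 2 units were recovered. These shares cover changed genes that passed the filter, in counts simulated without differences between tags. Without library 1, 18 genes were higher in NK cells and 12 lower. That fit held only tag 1 of library 2 and tag 7 of library 3, and the part of fewer tags in its lost calls was not tested. The NK cells, and the CD8 T cells among the T cells, are those of the comparison above, so both sets of results share samples.

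Of 11 tested genes of the granule 4 were higher and none was lower by edgeR (5 at an unadjusted p under 0.05). The shares over all 3033 genes tested were 2.14% higher and 1.52% lower. Gzma had 2508, 3869 and 4765 CPM in NK cells, against 0, 44.1 and 328 CPM in CD8 T cells, without overlap (log2 difference 4.99 ± 0.56), a separation seen in 2.97% of all genes tested. Gzmb had 696, 1375 and 2537 CPM in NK cells, against 125, 581 and 935 CPM in CD8 T cells. Its log2 difference of 1.40 ± 0.24 (adjusted p = 7.3e-03) did not pass without library 1 (1.69, adjusted p = 6.6e-02) or without the tag as a block (1.31, adjusted p = 1.8e-01). Serpinb9 was higher by 2.62 ± 0.32, though not without library 1 (2.05, adjusted p = 7.0e-02).

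Of 16 tested activating receptors and adaptors 6 were higher and 1, Cd226, lower, and of 8 inhibitory receptors 5 were higher. Among 19 tested factors 4 were higher, 2 lower and 13 not called, and of 15 cytokine receptors 2 were higher. Beside these counts stand 2.14% higher and 1.52% lower of all genes tested. Through NK cells alone 47 of the higher genes passed the filter, and through CD8 T cells alone 28 of the lower ones. Klre1 had 419, 731 and 819 CPM in NK cells, against 0, 34.4 and 44.1 CPM in CD8 T cells (log2 difference 4.42 ± 0.41). Klra8 had 732, 1036 and 1790 CPM in NK cells, against 0, 0 and 11.4 CPM in CD8 T cells, with 1 molecule in all CD8 T cells compared. Irf8 had 681, 1056 and 1369 CPM in NK cells, against 0, 13.1 and 29.4 CPM in CD8 T cells, without overlap (log2 difference 5.85 ± 0.37). Eomes and Tbx21 were higher by 2.41 ± 0.41 and 1.47 ± 0.25, both calls being lost without library 1 (Eomes 1.44, adjusted p = 1.7e-01; Tbx21 1.49, adjusted p = 2.6e-01). Xcl1, Ccl4 and Il2rb were higher by 3.89 ± 0.46, 2.44 ± 0.34 and 2.04 ± 0.24. Ccl5 did not pass, at 2044, 4097 and 6079 CPM in NK cells, against 1353, 2921 and 4646 CPM in CD8 T cells (log2 difference 0.36 ± 0.23, adjusted p = 5.3e-01). Itgax was higher by 3.07 ± 0.31.

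Ly6c2, a surface protein of memory CD8 T cells and monocytes, was lower, at 140, 199 and 379 CPM in NK cells, against 824, 1611 and 1824 CPM in CD8 T cells. No NK value reached a CD8 T cell value, as in 1.35% of all genes tested (log2 difference -2.76 ± 0.26, edgeR adjusted p = 1.1e-04). Lat and Bcl11b were lower at -3.89 ± 0.41 and -4.71 ± 0.45. Cxcr6 was lower at -2.99 ± 0.44, a call lost without library 1 (-2.98, adjusted p = 8.4e-02). Outside the lists Spry2 and Car2 headed the higher genes, at 5.42 ± 0.44 and 4.67 ± 0.31, followed by Atp1b1, Tnfrsf9, Hhex, Sulf2, Camk2n1, Osbpl3, Nrarp and Aoah. The lower ones were Gm8369, Slfn1, Adam19, Actn1, Ehd3, Ifi208, Ly6a, Gramd3, Ms4a6b and Grap2, of which Slfn1 lost its call without library 1 (-4.72, adjusted p = 7.6e-02).

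Within the NK cells, maturation genes were spread. Itgam without Cd27 was found in 103 cells, both in 51, Cd27 without Itgam in 40 and neither in 54. At these depths a cell without a molecule may still express the gene. Macrophages held a pooled 703 CPM of Itgam and 0.226 CPM of Cd27. Cells with Itgam alone held pooled levels of 4432 CPM of Gzma, 4814 CPM of Ccl5 and 80.2 CPM of Klrg1, a receptor of mature NK cells. Cells with Cd27 alone held 2387 CPM of Gzma, 1735 CPM of Ccl5 and 11.4 CPM of Klrg1. The median depths were 6723 and 8337 molecules.

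Eomes and Tbx21 were found together in 138 cells, Eomes alone in 75, Tbx21 alone in 25 and neither in 10. The 35 cells without an Eomes molecule were set beside the other 213, a split chosen after its values had been seen and not tested. Type 1 innate lymphoid cells, relatives of NK cells, are known for low Eomes and for Cxcr6 and Il7r. Pooled levels of Cxcr6 were 181 CPM in cells without Eomes and 1.43 CPM in cells with it. Tmem176b stood at 295 CPM without and 33.0 CPM with Eomes, and Il7r at 212 CPM without and 68.8 CPM with it. Of 31 cells with Il7r 22 (71.0%) held Eomes, against 88.0% of the cells without Il7r. Of 38 cells with Tmem176b 21 (55.3%) held Eomes, against 91.4% of the cells without Tmem176b. Klra8 was at 233 CPM without and 1273 CPM with Eomes, and Gzma at 1883 CPM without and 3601 CPM with it. Trac was at 34.7 CPM without and 23.9 CPM with Eomes, and the median depths were 5871 and 7678 molecules.

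**Figure D5:**
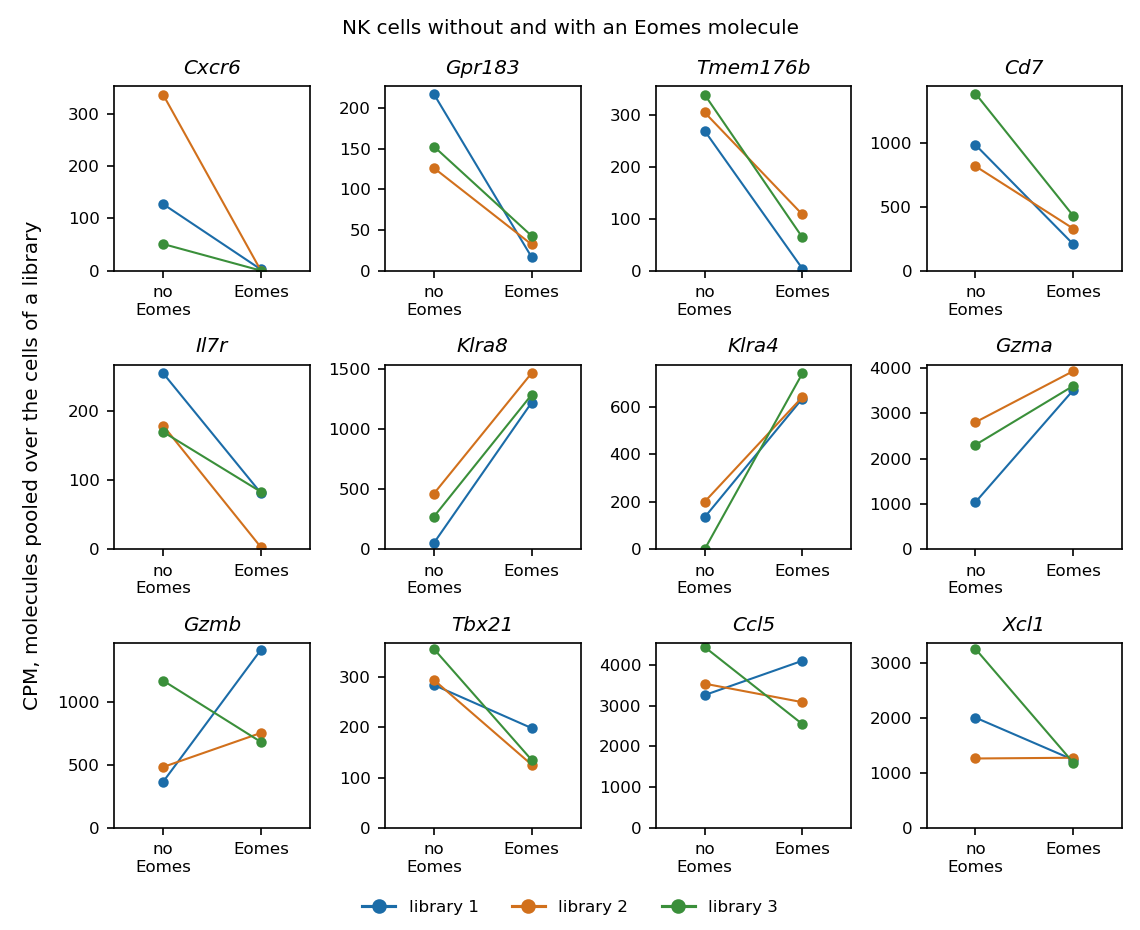
Pooled CPM of 12 genes in NK cells without (left) and with (right) an Eomes molecule, 1 line per library, each y axis starting at 0. Cxcr6 is higher and Klra8 lower without Eomes in all 3 libraries.

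The directions of Cxcr6 and Klra8 were the same in each library, on few cells without Eomes in each. Cxcr6 was at 127, 336 and 50.9 CPM without Eomes in libraries 1, 2 and 3, against 2.26, 0 and 0 CPM with it. Klra8 was at 52.4, 462 and 271 CPM without Eomes, against 1219.5, 1464 and 1285 CPM with it. Of 13 cells with a Cxcr6 molecule, from 10 tags, 1 had Eomes, 0 had Klra8 and 11 had Tbx21. Among the other 235 NK cells 90.2% had Eomes and 69.4% had Klra8. Cells with Cxcr6 had a median of 10110 molecules, against 7575 in the other cells.

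Mki67 and Top2a, genes of dividing cells, were found together in 31 of 248 NK cells (12.5%). These were deep cells, with a median of 18018 molecules against 7043 in the others. They held pooled levels of 1589.8 CPM of Gzma, 414 CPM of Klra8 and 1028 CPM of Ccl5. The others held 4045 CPM of Gzma, 1412 CPM of Klra8 and 4558 CPM of Ccl5. Xcl1 stood at 1446 CPM in the cells with both division genes and 1285 CPM in the others, and Ifng at 180.3 CPM with both and 167 CPM in the others. These differences were not tested.

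F7, the floxed gene, was found in 3 of 248 NK cells (1.21%; 95% Clopper-Pearson interval 0.250 to 3.49%), with 4 molecules in all. Thinned, 0 of 248 NK cells held it, against 0.477% of 419 T cells and 0.5% of 2000 macrophages, and these low shares were not tested. Cx3cr1, for which the Cre line is named, had a median of 19.5 CPM (range 0 to 94.2) in NK cells, against a pooled 246 CPM in macrophages. It was found in 27 NK cells (10.9%), or 3.23% when thinned. F2r, the thrombin receptor PAR1, was found in 62 NK cells at a median of 45.0 CPM (range 0 to 84.8), against a pooled 0.643 CPM in macrophages. Relative to T cells, F2r and Plaur, the urokinase receptor, were lower, at -0.91 ± 0.30 (edgeR adjusted p = 3.8e-02) and -1.15 ± 0.28. The Plaur call was lost without library 1 (-0.54, adjusted p = 4.4e-01) and without the tag as a block (-0.90, adjusted p = 1.1e-01), and the F2r call with at least 20 cells per tag and class (-0.67, adjusted p = 5.7e-01), in cells with no C1q molecule (-2.14, adjusted p = 2.7e-01), in NK cells with no Trac molecule (-0.75, adjusted p = 1.2e-01) or with Ncr1 (-0.74, adjusted p = 1.2e-01). They were the 2 of 18 coagulation genes high enough to be tested, and 7.99% of all genes tested were lower.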

How the data were processed

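Single-cell RNA of leukocytes selected for CD45 was deposited as raw molecule counts per cell and gene; per the file headers, the authors used the BD Rhapsody pipeline on GRCm38 (version 2.0b1 on beads of the enhanced type for library 1, and 1.10 on the original beads for libraries 2 and 3). The members and gene lists were chosen with earlier results of these data known. Cells were classed by the rules in the report, and counts were summed per tag and class where a tag held at least 10 cells of each. Sums were tested with edgeR 4.0.16 (quasi-likelihood, TMM, tag as block, filterByExpr, Benjamini-Hochberg), alternatives including DESeq2 1.42.0. In simulated counts 95.4% of changes of 1 log2 unit were recovered for NK against T cells, among the 87 changed genes that passed the filter. The simulated counts held no differences between tags, unlike the real ones, so recovery in the real data may be lower. Depth was 18550 to 301121 NK molecules a tag. Intervals cover counting error only. Doublet scores from Scrublet in scanpy 1.11.5 gave hardly any automatic calls, so no doublet was removed; leaving out the 2% highest scores was an alternative, and 6 members were among them. Named genes are list members and the 10 higher and 10 lower called genes outside the lists with the greatest difference in the same direction in every tag.

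NK and T cells of a tag come from the same sample, so the tag pairs them by design. Alternatives were other scaling, filters, cell minimums, gates and libraries left out. Genotype was not compared because no label ties it to a tag, and time because no label says which time a tag stands for. Some genes are not reported here.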

Additional observations from a re-analysis of the deposited data

How the results depend on the processing

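For NK against T cells, 277 genes were higher and 264 lower. The higher count was 174 with at least 20 cells, 105 to 282 leaving out 1 library each, 87 within library 2, 40 within library 3 and 21 in cells with no C1q molecule. The lower count was 774 with no filter beyond 1 count, 59 to 353 leaving out 1 library each, 66 within library 2, 22 within library 3 and 26 with no C1q molecule. Without the tag as a replicate block 240 were higher and 172 lower. Against CD8 T cells (65 higher, 46 lower), the counts were 162 and 162 with no filter, 117 and 125 with at least 5 cells, 38 and 27 without the 2% highest doublet scores, and 48 and 27 without the replicate block. Leaving out 1 library each gave 18 to 78 higher and 12 to 55 lower, and library 1 alone gave 71 lower. Fewer tags or cells enter most of these fits; for the others the cause was not tested. Not run against CD8 T cells, for want of tags, were at least 20 cells, no C1q molecule, and libraries 2 and 3 alone.

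Of 1218 recomputed differences of 79 named genes called against T cells, 1101 kept direction and call, 116 lost the call (48 of them in the 2 tags with cells free of C1q) and 1 turned (Ccl3 within library 2, -0.18). Against CD8 T cells 247 of 257 kept both. The genes were chosen because they were called, and the fits share cells. Some of the genes, such as Bcl11b against T cells, passed the filter through 1 class alone. These counts are descriptions of the named genes and no test. Thinned to 1000 molecules, thinned to 2000 and unthinned, the share of NK cells with a molecule was 77.4, 85.5 and 89.9% for Gzma, 44.8, 57.7 and 73.8% for Gzmb, 50, 64.1 and 81.9% for Xcl1, 16.9, 25.8 and 42.7% for Ifng, 44, 65.3 and 85.9% for Eomes and 21.4, 33.9 and 62.1% for Itgam, so shares depend on depth. Leaving out 1 library each, median levels were 3037 to 3720 CPM for Gzma, 595 to 1073 for Gzmb, 1282 to 1537 for Xcl1, 108 to 166 for Ifng, 445 to 651 for Eomes and 221 to 311 for Itgam. The median share per tag of 0.964% ranged from 0.651% to 1.01% over its alternatives.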

Other observations

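Kit, a receptor of lymphoid progenitors and innate lymphoid cells, was found in 33 NK cells from 13 tags, of which 27 also held Eomes and 20 Klra8. Itga1 (CD49a), a collagen receptor of resident lymphocytes, was found in 55 NK cells, 42 of them with Eomes, and its median level was 62.4 CPM (range 3.96 to 381). Ifng and Xcl1 were found together in 94 cells, Ifng alone in 12 and Xcl1 alone in 109. Klra8 and Klra4 were found together in 108 cells, Klra8 alone in 55 and Klra4 alone in 26. These are descriptions of the cells as counted and were not tested.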
